A study of Homo sapiens with 2 samples.

Results

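The genes described here were those on the array whose names mark DNA repair and the response to DNA damage. They were chosen by name: all genes whose array name starts with FANC, ERCC, XRCC, MSH or MLH, and a fixed set of single genes such as BRCA1, BRCA2, ATM, ATR, PRKDC, XPA, MGMT, APEX1 and PARP1. The rule found 69 genes and 98 probes among 34127 gene probes. RNA came from RMG1, an established line of human ovarian cancer, whose cells were sorted by the ALDEFLUOR assay into ALDH+ cells (assay positive) and ALDH- cells (assay negative). The assay marks living cells with high aldehyde dehydrogenase activity, and the study used ALDH+ cells as cancer stem-like cells. The labels name no treatment of either population, and both came from the same line grown in the same medium. One pair of RNA extracts was hybridised to 2 two-colour arrays of 60-base probes, with ALDH+ in Cy5 on the first and in Cy3 on the second. Both arrays together are therefore 1 replicate, no test could be made, and each SD given is the technical spread of the 2 arrays.

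A cell answers DNA damage with separate pathways. Altered bases are cut out by base excision repair, bulky lesions and platinum adducts by nucleotide excision repair, and copying errors by mismatch repair. Broken ends are joined directly or copied from the sister chromatid by homologous recombination, the Fanconi anaemia proteins unhook crosslinks between strands, and the kinases ATM and ATR halt the cell cycle meanwhile. These pathways are known in ovarian cancer for their bearing on the response to platinum drugs. The study tested carboplatin and paclitaxel on cells with the gene MMP10 overexpressed or knocked down. It reports no such test of sorted ALDH+ against ALDH- cells.

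Of the 69 genes, 65 were measured, which means that a probe was well above background on both arrays in at least one population. The other 4 were BRCA2, LIG3, LIG4 and MSH4, and no level of theirs was compared. BRCA2, a central factor of homologous recombination, had a probe printed in 10 spots that cleared the background in the Cy5 channel of each array and not in the Cy3 channel, so that neither population cleared it on both. In the results below, a value is the log2 ratio of ALDH+ over ALDH- signal after normalisation within each array, so a negative value means less RNA signal in ALDH+ cells. With bulk RNA, fewer cells of a kind and less RNA per cell cannot be told apart.

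Most of these genes differed little between ALDH+ and ALDH- cells. The median log2 ratio of the 65 genes was -0.04, against -0.002 over all 13718 measured genes, and 42 of the 65 (64.6%) had a ratio under 0.2 in size, against 58.8% of all genes. On both arrays 27 genes were lower in ALDH+ cells (41.5%), where the share over all genes was 36.1%. A further 14 genes (21.5%) were higher on both arrays, against 33.7% of all genes, and the remaining 24 (36.9%) changed sign between the arrays, against 30.3%. Past 1.5-fold with the same sign on both arrays, 4 genes were lower (6.15%, background 4.59%) and 0 were higher (background 1.51%). The 4 were XRCC3, FANCA, MSH6 and PRKDC. Past 2-fold, the threshold the study used for its screen, stood only XRCC3, lower in ALDH+ cells (1.54%, background 0.707%), and 0 genes were higher (background 0.211%).

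**Figure D1:**
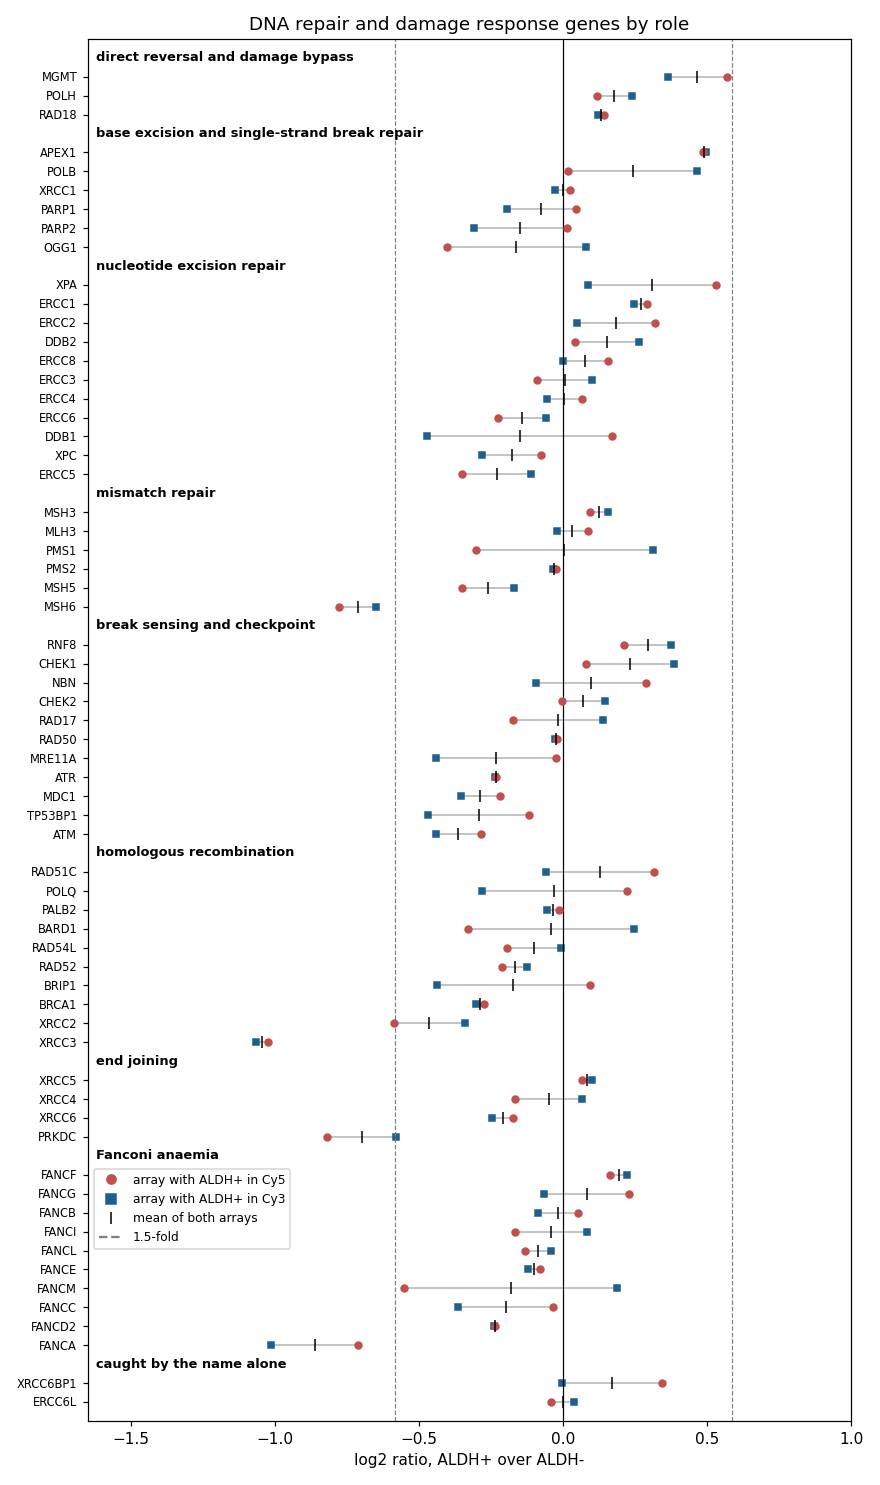
The log2 ratio of ALDH+ over ALDH- cells is shown on the x axis for 63 of the 65 measured genes, grouped by role. Circles are the array with ALDH+ in Cy5, squares the array with ALDH+ in Cy3, black ticks their mean and dashed lines 1.5-fold. XRCC3, FANCA, MSH6 and PRKDC have means below the left dashed line, and no gene has a mean beyond the right one.

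The probes behind the results are printed here because a ratio on this array is the ratio of 1 short stretch of each transcript. The following 6 probes lie in coding sequence, on hg19 as the array files place them. FANCA and MSH6 are genes with lower signal in ALDH+ cells, and APEX1, MGMT, ERCC1 and RNF8 are genes with higher signal.
FANCA (chr16:89877116-89877175, minus strand): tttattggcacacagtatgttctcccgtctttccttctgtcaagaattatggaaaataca
MSH6 (chr2:48033919-48033978, plus strand): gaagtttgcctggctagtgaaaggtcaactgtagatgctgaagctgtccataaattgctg
APEX1 (chr14:20924246-20924871, plus strand): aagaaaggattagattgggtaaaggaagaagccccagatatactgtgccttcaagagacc
MGMT (chr10:131506282-131557499, plus strand): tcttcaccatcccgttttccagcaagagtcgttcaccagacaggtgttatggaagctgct
ERCC1 (chr19:45918124-45918183, minus strand): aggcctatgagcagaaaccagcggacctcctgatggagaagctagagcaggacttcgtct
RNF8 (chr6:37348954-37349013, plus strand): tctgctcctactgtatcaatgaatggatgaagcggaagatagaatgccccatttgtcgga
The 60 bases of APEX1 spread over 626 bases of the genome and those of MGMT over 51218, so each of these probes crosses an exon junction and reads spliced RNA. The other 4 each lie in one unbroken genomic stretch.

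The single gene past 2-fold, XRCC3, rested on a probe of another kind. XRCC3 acts in homologous recombination. The probe was assigned through the transcript clone CR610241 and lies at chr14:104170734-104170793 (hg19, minus strand). Its first 30 bases are shown because their start, in capitals, has the letters of the right end of an Alu element, a repeat found throughout the human genome.
XRCC3: CCAGCCTGGGCGACAGAGTGAGtctcttgt
Signal of this probe was 30631 in ALDH+ and 20840 in ALDH- cells on the first array, and 13912 in ALDH+ and 50732 in ALDH- cells on the second. It was among the brightest probes, at the 99.3rd percentile for ALDH- cells on the second array. The normalised ratios were -1.02 and -1.07, a mean of -1.04 ± 0.03 and 2.06-fold lower signal in ALDH+ cells. The other XRCC3 probe gave -0.24 and -0.20, a mean of -0.22 ± 0.03, so the gap between the probes was many times the spread of the arrays. Of all gene probes, 4 shared 12 or more bases with the 22 capitals, and 3 of them were measured. The 2 measured probes beside that of XRCC3 read -0.52 (LOC284014) and -0.74 (a probe with no gene name), both lower on both arrays. How far the repeat-like stretch set the XRCC3 ratio was not tested. With the other XRCC3 probe in its place, 3 genes were past 1.5-fold and 0 past 2-fold.

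**Figure D2:**
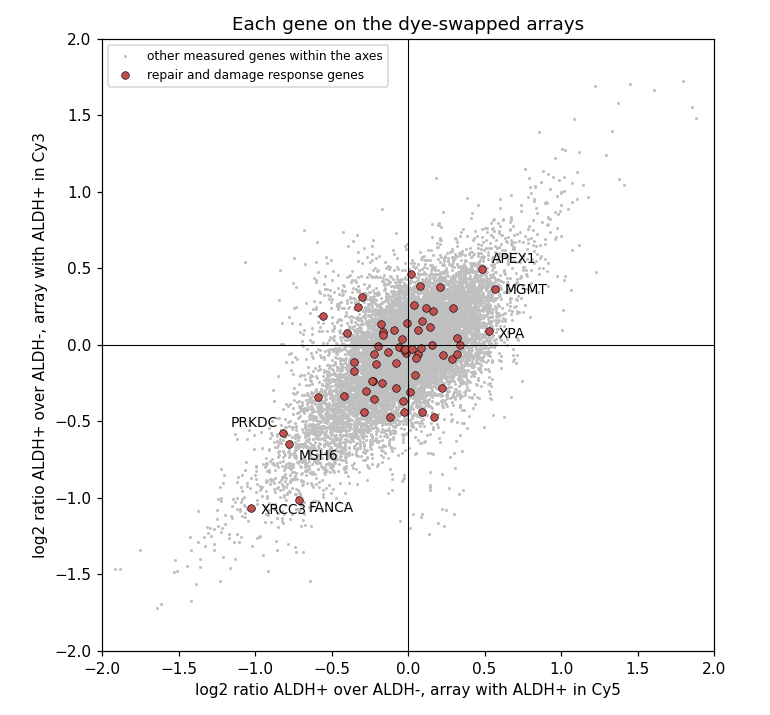
Each point is a gene, with the log2 ratio of ALDH+ over ALDH- cells on the array with ALDH+ in Cy5 on the x axis and on the array with ALDH+ in Cy3 on the y axis. Grey points are other measured genes and red points the repair and damage response genes. XRCC3, FANCA, MSH6 and PRKDC lie at the lower left on both arrays, and APEX1 and MGMT at the upper right, inside the cloud of other genes.

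How far a single ratio can be trusted was read from the arrays themselves. The median SD of the 2 arrays was 0.13 for the 65 genes and 0.11 for all genes, so most of their ratios lay within a few technical SDs of 0. Across genes, which are not independent replicates, the ratios of the 2 arrays had a Pearson r of 0.59 and a Spearman rho of 0.42 over the 65 genes, and 0.69 and 0.59 over all genes. Without the 4 genes past 1.5-fold, r over the rest was 0.32. Measured probes printed in 10 spots, which 10 of the 65 genes have, gave a spot-to-spot SD within an array of 0.05 to 0.17.

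In mismatch repair, the clearest difference was that of MSH6, with small spread within and between arrays. MSH6 takes part in finding single mismatched bases. MSH6 signal was 3347 in ALDH+ against 2627 in ALDH- cells on the first array, and 1810 against 4808 on the second, before the correction for dye. Normalised, the ratios were -0.78 and -0.65, with spot SDs of 0.05 and 0.06 over 10 spots, and the mean of -0.71 ± 0.09 is 1.64-fold lower signal in ALDH+ cells.

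Other mismatch repair genes lay closer to 0. MSH3, which takes part in finding larger loops, was the highest of the group at 0.09 and 0.16. PMS2, an endonuclease of the pathway, gave -0.03 on both arrays, and its 4 measured probes ranged from -0.19 to 0.07. Values of PMS2 are uncertain, as the genome holds near-identical copies of the gene. Of the 8 measured genes grouped under mismatch repair, 5 were lower on both arrays, 1 was higher and 2 changed sign. Among the 5 is MSH5, at -0.35 and -0.17, which is known for meiotic recombination and not for mismatch repair. Over all measured genes these shares were 36.1%, 33.7% and 30.3%, the background for each role group below. The groups are small, so their counts are a description only.

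In the Fanconi anaemia group, 5 of 10 measured genes were lower on both arrays, 1 was higher and 4 changed sign. FANCA, a subunit of the core ubiquitin ligase, was the lowest. Its printed probe had signals of 311 in ALDH+ and 381 in ALDH- cells on the first array, and 231 and 548 on the second. The ratios were -0.71 and -1.01, a mean of -0.86 ± 0.21 or 1.82-fold lower signal. A 10-spot FANCA probe at the far end of the transcript gave -0.53 and -0.43, while the last gave 0.25 and -0.45. This last probe and the printed one are assigned to the same transcript. All 3 FANCA probes had means below 0, between -0.86 and -0.10, and only the brightest passed 1.5-fold. FANCD2, which the core complex tags with ubiquitin, gave -0.24 and -0.24 with its brighter probe, and 0.15 and -0.04 with another. FANCD2 also has near-identical copies in the genome, which makes its values uncertain. The highest of the group was FANCF, an adaptor of the core complex, at 0.16 and 0.22 with its brighter probe. Its other probe gave 0.11 and -0.18, so the direction of FANCF depends on the probe.

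In the grouping used, which leaves POLQ to homologous recombination, end joining had 4 measured genes. Of these, 2 were lower on both arrays, 1 was higher and 1 changed sign. PRKDC, the catalytic kinase of DNA-PK that holds broken ends, had signals of 474 in ALDH+ and 536 in ALDH- cells on the first array and 318 and 600 on the second. Its ratios were -0.82 and -0.58, a mean of -0.70 ± 0.17 or 1.62-fold lower signal in ALDH+ cells. A dimmer PRKDC probe, whose signal in ALDH+ cells did not clear the background on each array, gave -0.17 and -0.45. This dimmer probe counted as measured through ALDH- cells alone, where it was higher, so its sign adds no separate support. The mean over both PRKDC probes, -0.50, fell short of 1.5-fold. The Ku proteins that recruit this kinase to ends moved apart, with XRCC6 (Ku70) at -0.17 and -0.25 and XRCC5 (Ku80) at 0.07 and 0.10.

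**Figure D3:**
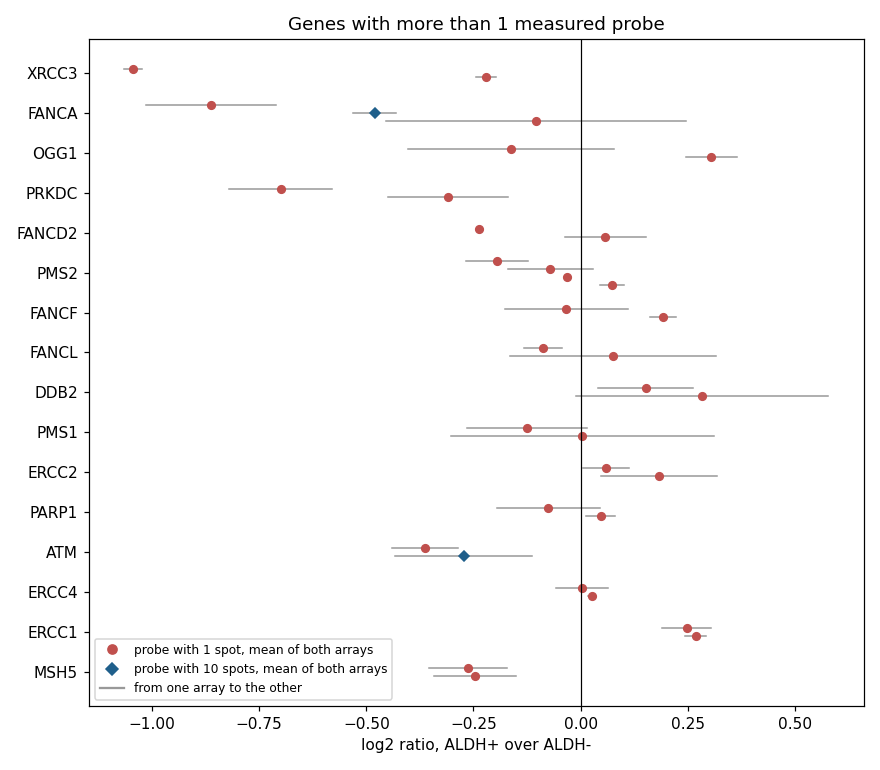
The log2 ratio of ALDH+ over ALDH- cells is shown on the x axis for every measured probe of 16 genes with more than 1 measured probe, ordered by the distance between their probes. Points are means of both arrays, diamonds mark probes with 10 spots, and grey lines run from one array to the other. The probes of XRCC3, FANCA, OGG1 and PRKDC stand more than 0.3 apart, and those of the other 12 genes less.

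Among 10 measured genes grouped under homologous recombination, 6 were lower on both arrays, 0 were higher and 4 changed sign. POLQ, at 0.22 and -0.28, is counted here although its polymerase is known for a separate route of end joining. BRCA1, which directs broken ends into this pathway, gave -0.28 and -0.30 from 10 spots, with a spot SD of 0.08 on each array, a mean of -0.29 ± 0.02. XRCC2, of the same protein family as XRCC3, gave -0.59 and -0.34. The highest was RAD51C, also of this family, at 0.32 and -0.06, of opposite sign on the arrays. PALB2, the link between BRCA1 and BRCA2, stood near 0 at -0.01 and -0.06. The group median was -0.14, the lowest of the role groups. It stood close to the -0.13 of end joining, but both medians depend on where POLQ is placed. XRCC3 and XRCC2 were the lowest genes of homologous recombination. With the other XRCC3 probe, at -0.22, XRCC2 and BRCA1 were the lowest.

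Among the sensors and checkpoint kinases, ATM, the kinase that answers double-strand breaks, was the lowest of 11 genes at -0.29 and -0.44, and its 10-spot probe gave -0.11 and -0.43. ATR, its counterpart at stalled forks, gave -0.23 and -0.24. MDC1 and TP53BP1, scaffolds that gather at breaks, had means of -0.29 each. Of the kinases downstream of ATR and ATM, CHEK1 gave 0.08 and 0.39 and CHEK2 changed sign. RNF8, the ubiquitin ligase recruited by MDC1, was the highest at 0.21 and 0.38. The MRE11A-RAD50-NBN complex gave means of -0.23, -0.02 and 0.10. In all 6 of the 11 genes were lower on both arrays, 2 higher and 3 changed sign.

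The highest ratios were those of a base excision gene and of a direct reversal gene, though neither reached 1.5-fold. APEX1, the endonuclease that cuts at sites lacking a base, had the highest ratio of all 65 genes. Its signals were 561 in ALDH+ and 303 in ALDH- cells on the first array and 378 and 343 on the second. The ratios of 0.48 and 0.50 gave a mean of 0.49 ± 0.01, a 1.40-fold difference. MGMT, which removes alkyl groups from guanine, followed with signals of 1605 and 610 on the first array and 878 and 1093 on the second. Its ratios were 0.57 and 0.36, a mean of 0.47 ± 0.15 or 1.38-fold.

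The other genes of these pathways varied. POLH, a polymerase that copies past platinum and ultraviolet lesions, gave 0.12 and 0.24, and RAD18, the ligase that calls it to stalled forks, gave 0.14 and 0.12. Thus all 3 genes of direct reversal and damage bypass were higher on both arrays. Of 6 measured base excision genes, 2 were higher on both arrays, APEX1 and POLB, the gap-filling polymerase, at 0.02 and 0.46. The other 4 changed sign, among them PARP1, the sensor of strand breaks, and OGG1, the oxidised guanine glycosylase. OGG1 was the lowest of the group with its brighter probe, at -0.40 and 0.08, while its other probe gave 0.36 and 0.25, so the direction of OGG1 depends on the probe.

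Nucleotide excision repair split evenly, with 4 of 11 genes higher on both arrays, 3 lower and 4 changing sign. ERCC1, a subunit of the nuclease that cuts 5′ of a lesion, had signals of 4862 in ALDH+ and 1833 in ALDH- cells on the first array and 2417 and 3492 on the second. Its 2 probes agreed, with ratios of 0.29 and 0.24 for the printed one and 0.19 and 0.30 for the other, which is 1.20-fold higher signal. ERCC4, the catalytic partner of ERCC1, gave ratios on either side of 0, at 0.06 and -0.06. XPA, which verifies the lesion, was the highest of the group by its mean of 0.31, with arrays far apart at 0.53 and 0.09. The lowest was ERCC5, the nuclease that cuts 3′ of the lesion, at -0.35 and -0.11. The damage sensors DDB2 and XPC, both known p53 targets, stood at 0.15 and -0.18.

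Across genes tied to platinum damage, no single direction was seen. ERCC1, XPA and POLH were higher on both arrays, BRCA1 and FANCD2 were lower, ERCC4 changed sign and BRCA2 was not measured. A pair of further genes, placed in no role group, entered by the naming rule alone. ERCC6L, a helicase of mitotic chromosomes, gave -0.04 and 0.04, and XRCC6BP1, now named ATP23, gave 0.34 and -0.003.

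Other repair genes, which the naming rule left out, also had a median close to 0. In a list of 96 genes on the array, 84 were measured, with a median of -0.05. Of these 39 were lower on both arrays, 22 higher and 23 changed sign. The shares over all measured genes were 36.1%, 33.7% and 30.3%. Lower past 1.5-fold stood UVSSA (-0.76), a factor of repair in transcribed genes, and TIMELESS (-0.61), which protects replication forks (background 4.59%). Higher past it stood 0 genes (background 1.51%). The highest was H2AX, the histone marked at breaks, at 0.47 and 0.65.

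Lists of cell cycle genes had medians further from 0, in opposite directions by phase. Of 42 measured S phase genes, 24 were lower in ALDH+ cells on both arrays and 7 higher, with a median of -0.19; ATAD2 was the lowest at -0.54 and RAD51AP1 the highest at 0.23. Of 53 measured G2/M genes, 39 were higher and 7 lower, with a median of 0.28, from CBX5 at -0.24 to UBE2C at 0.73. BRIP1 is among the S phase genes. Whether these differences bear on the repair genes was not tested. Of 24 measured p53 target genes, 14 were higher and 5 lower, with a median of 0.12, from GDF15 at -0.42 to BTG2 at 0.67; XPC and DDB2 are among them. The lists overlap in some genes, so their counts are not independent. Over all measured genes, 36.1% were lower and 33.7% higher on both arrays.

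**Figure D4:**
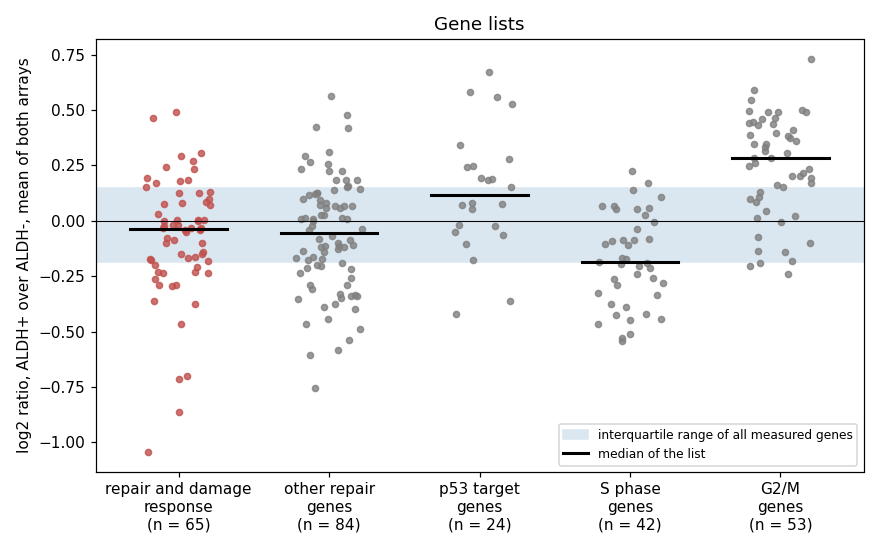
Each point is the mean log2 ratio of ALDH+ over ALDH- cells of one gene, on the y axis, for 5 gene lists on the x axis. Black bars are medians of the lists and the shaded band spans the interquartile range of all 13718 measured genes. The medians are -0.04 for the repair and damage response genes, -0.05 for other repair genes, 0.12 for p53 targets, -0.19 for S phase and 0.28 for G2/M genes.

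Many repair genes are transcribed in late G1 and S phase through E2F factors, so their promoters were searched for E2F-type letters. The words TTTGGCGC, TTTCCCGC, TTTGCCGC and TTTCGCGC were sought on either strand in the window from 250 bases before to 50 after each start (RefSeq, GRCh38.p14). At least one stood in 908 of 27305 promoters (3.33%) and in 9 of the 62 repair and damage response genes with an entry (14.5%). FANCI, NBN, POLB, PRKDC and XRCC5 were among those with no entry. The 9 genes were FANCA, MSH6, XRCC2, FANCD2, XRCC6, FANCC, XPC, PMS2 and MSH3, and all were measured. Their median log2 ratio was -0.21. In 8 of the 9 the signal was lower in ALDH+ cells on both arrays, with MSH3 the exception. Among the 8, PMS2 stood near 0, at -0.03 on both arrays, and FANCD2 gave 0.15 and -0.04 with another probe. The matches of MSH6, XRCC2 and XRCC6 lie after the start, and that of FANCD2 spans it. Whether the letters bear on the ratios was not tested. The 49 measured genes without the letters had a median of -0.02, and 16 (32.7%) were lower on both arrays. Among other measured genes, 514 with the letters had a median of -0.01 and 38.7% lower on both arrays. The 8898 other genes without them had a median of -0.004, and 36.9% were lower on both arrays.

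The stretches before the start of FANCA, the lowest of the 9, and of MSH3, the one higher gene, are printed with the matched letters in capitals (GRCh38.p14).
FANCA (chr16:89816766-89816865, minus strand): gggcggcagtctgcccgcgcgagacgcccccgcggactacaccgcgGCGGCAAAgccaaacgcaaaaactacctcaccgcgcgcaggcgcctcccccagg
MSH3 (chr5:80654499-80654598, plus strand): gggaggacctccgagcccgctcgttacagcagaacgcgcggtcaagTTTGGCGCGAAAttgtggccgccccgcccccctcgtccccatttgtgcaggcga
In FANCA the match lies 172 bases before the start and on the opposite strand. In MSH3 a pair of matches on opposite strands overlap, the nearer of them beginning 103 bases before the start. Such a match is a description of the letters and not a measured binding site.

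Gene length was also compared, as long genes are common among repair genes. The 65 genes had a median span of 45509 bases against 26866 for 11810 measured genes with a known span (GRCh38.p14). Across the 65 genes, Spearman's rho between span and log2 ratio was -0.18 and Pearson's r with log10 of the span -0.17; over all genes they were -0.16 and -0.14. Longer genes thus tended slightly to lower signal in ALDH+ cells in either set, a relation across genes of one replicate.

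The samples were checked against markers. All 5 epithelial markers were measured, with a median of 0.02, as were the 4 clear cell carcinoma markers, with a median of -0.16. Of these, 3 were lower in ALDH+ cells on both arrays, and PAX8, at -0.83 and -0.64, was past 1.5-fold. Of the enzymes behind the sort, ALDH1A3 was higher in ALDH+ cells at 0.65 and 0.56, ALDH1A2 gave 0.36 and 0.03, and ALDH1A1 was not measured. Of 6 leukocyte markers 3 were measured, CD14 at 0.32 and 0.58, CD68 at -0.19 and 0.04 and PTPRC at -0.12 and 0.19, while CD3E and ITGAM were among those that were not. Of 4 stromal markers, VIM alone was measured, at -0.26. Between 21697 and 27979 of 43118 gene probe spots per array and population were well above background, and 0 were saturated. The negative controls had median signals of 45.1 and 43.1 in Cy5 and of 127 and 135 in Cy3.

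The sign of the largest differences did not change with the processing: XRCC3, FANCA, MSH6 and PRKDC were below 0 and APEX1 and MGMT above 0 under each setting tried. Where a setting used both arrays, the value read was their mean. Over 9 settings that use both arrays, 28 of the 65 genes were below 0 in each and 21 above 0 in each. No share over all genes is given beside these counts, so they do not set the repair genes apart. Some of the settings also repeat another or leave many values as they are. The log ratio made by the array software put APEX1 past 1.5-fold, at 0.63.

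**Figure D5:**
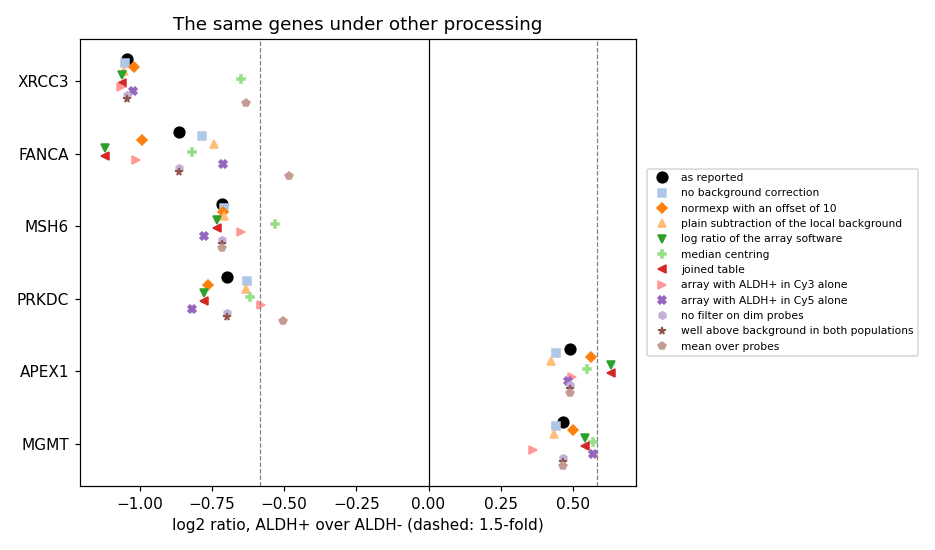
The mean log2 ratio of ALDH+ over ALDH- cells on the x axis is shown for 6 genes under the reported processing, as large black circles, and under 11 alternatives. Dashed lines mark 1.5-fold. The 4 genes at the top stay below 0 and APEX1 and MGMT above it, while FANCA ranges from -1.12 to -0.48.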

How the data were processed

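Total RNA from sorted RMG1 cells, ALDH+ and ALDH-, was read on 2 dye-swapped arrays of the same RNA extracts, counted as 1 replicate. The labels name RMG1 as the source; the methods text names another line, AMOC2, and the labels were followed. The authors deposited spot intensity and local background per array, without normalization, from Feature Extraction (10.7.3.1 in the file headers, 8.5.1.1 in the submitters' processing notes). The deposited log10 ratio is that software's own, after its background subtraction and dye normalization, and another deposited table joins it for both arrays. Probe positions are on hg19, per the file headers.

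Ratios were made with limma 3.58.1 (R 4.3.3). Background was corrected by normexp on mean signal and median local background (offset 50), then loess within each array, with control and outlier spots left out (531 and 519 gene probe spots). The sign was turned to ALDH+ over ALDH- by the dyes in the labels. A probe was measured when, on each array, over 50% of its spots in at least one and the same population were well above background (16683 of 34127 probes). Each gene took its brightest measured probe. A gene was past 1.5-fold when its mean was and both arrays had the same sign. Counting used scipy 1.17.1, pandas 2.3.3 and numpy 2.4.6 under Python 3.11.15. The normalization was also run on simulated arrays with a smooth dye effect, the case that loess is built to remove. That run cannot show how well it suits the real arrays. With 2 arrays and no biological replicate, precision is limited by their number.

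Genes named in the text were the highest and lowest of each role group, every gene past 1.5-fold, a list of platinum-damage genes, and others where probes disagreed or a count was small. Members, gene lists and motif were chosen with earlier results of these data known. Some genes that these rules cover are not reported here. Probes printed were those in coding sequence; the XRCC3 probe and the contrast with its other probe were chosen after their values were seen. Alternatives were the background correction, its offset, the normalization, the deposited ratio, the dim-probe filter, the probe rule and each array alone.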

Additional observations from a re-analysis of the deposited data

How the results depend on the processing

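No paired analysis was possible because the arrays share one pair of extracts. Counts and the median stayed within a factor of 1.5 or the array spread with an offset of 10, with plain or no subtraction of background, with no filter on dim probes, and the filter in both populations. From the software's log ratio, alone or in the joined table, the median of the repair genes was -0.079 and 7 genes were past 1.5-fold (XRCC3, FANCA, MSH6, PRKDC, XRCC2, ATM and APEX1). Median centring without loess left the arrays' all-gene medians at 0.56 and -0.43. There the median of the repair genes was 0.0028, 8 were lower and 5 higher on both arrays, and 2 were past 1.5-fold, FANCA and PRKDC. The all-gene median was then 0.07, and 9.02% of all genes were lower and 8.28% higher on both arrays. With the mean over a gene's probes, 2 were past 1.5-fold, XRCC3 and MSH6. On each array alone, the median ran from -0.044 to -0.026 and the count past 1.5-fold from 3 to 5. The share of all genes past 1.5-fold under these settings is not given, so these counts have no background beside them. Among 275 values of 25 genes chosen by the rule for named genes under these settings, 11 had the other sign, none of them of a gene past 1.5-fold. Many of these values could not differ, so this count overstates how stable the signs are. The joined table repeats the software's ratio, and the changes of the dim-probe filter left each value as it was. The mean over probes left genes with 1 measured probe unchanged. With the XRCC3 probe exchanged, a setting chosen after seeing the data, the count past 1.5-fold was 3. In Cy3 the ERCC4 signals of 162 and 174 stood close to the medians of the negative controls (127 and 135), which limits the differences that can be read there. In Cy5 they were 120 and 111, against control medians of 45.1 and 43.1. The limit in Cy3 also bears on other dim genes. Among them were PALB2 (173 and 183 in Cy3), POLB (200 and 198), ERCC6L (184 and 196) and XRCC2 (176 and 228).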
